A study of Mus musculus with 19 samples.

Results

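The regional identity of the normal mouse forebrain was examined by comparing RNA from the wild-type (WT) striatum with RNA from the WT prefrontal cortex. The members were chosen by region and genotype as the sample labels give them, which took 6 of the 19 sequencing libraries of the series, 3 of each region, numbered as replicates 1 to 3. All 6 came from C57BL/6 mice at 3 months of age with no mutant allele and no treatment named in the labels. The remaining libraries came from WT cerebellum and from the same regions of knock-in mice of spinocerebellar ataxia 17 (SCA17), which carry mutant Tbp with an expanded polyglutamine tract in the germline. All of them served to share the estimate of spread. The knock-in forebrain libraries also gave a second measurement of the regional difference and a test of whether it depended on genotype. Levels in the WT cerebellum were set beside those of the forebrain regions. The labels name neither the sex of a mouse nor whether libraries with the same number came from the same mouse. The p-values below therefore measure spread between libraries of a group, estimated over all 19 libraries.

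The striatum is built mainly of inhibitory projection neurons that use GABA. Those of the direct pathway carry the dopamine receptor Drd1 with the peptides substance P and dynorphin, and those of the indirect pathway carry Drd2 with enkephalin. In both, dopamine acts through cyclic AMP, which cortical glutamate input and local acetylcholine from a sparse class of large interneurons modify. The prefrontal cortex is built mainly of glutamatergic projection neurons arranged in layers, with several classes of GABA interneurons among them. The projection neurons of the striatum and the interneurons of the cortex arise in the ganglionic eminences of the embryo, whereas cortical projection neurons arise in the pallium, and each origin leaves its own set of transcription factors in the adult.

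The upstream sequences of 4 genes that stood on opposite sides of this comparison are shown, since the cyclic AMP response element and the E-box bound by NeuroD factors belong to the signalling and the transcription factor families described below. Each line gives the 250 bases before the annotated start of the gene on its own strand, 5′ to 3′, from RefSeq on GRCm38.p6, with the motif in capitals. Gpr6 (chr10:41072291-41072540, − strand) and Rgs9 (chr11:109298182-109298431, − strand) were higher in the striatum. Cck (chr9:121495695-121495944, − strand) and Neurod2 (chr11:98329646-98329895, − strand) were lower.
Gpr6: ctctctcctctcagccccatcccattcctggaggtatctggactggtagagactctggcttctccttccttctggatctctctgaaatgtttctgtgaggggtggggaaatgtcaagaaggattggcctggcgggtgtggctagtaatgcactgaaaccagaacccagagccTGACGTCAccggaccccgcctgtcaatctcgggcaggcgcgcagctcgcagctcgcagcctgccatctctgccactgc
Rgs9: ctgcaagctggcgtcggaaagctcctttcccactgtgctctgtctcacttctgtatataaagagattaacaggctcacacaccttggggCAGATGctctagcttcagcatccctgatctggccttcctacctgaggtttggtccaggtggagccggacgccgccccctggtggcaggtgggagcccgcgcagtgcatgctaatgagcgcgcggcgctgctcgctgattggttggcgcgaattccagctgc
Cck: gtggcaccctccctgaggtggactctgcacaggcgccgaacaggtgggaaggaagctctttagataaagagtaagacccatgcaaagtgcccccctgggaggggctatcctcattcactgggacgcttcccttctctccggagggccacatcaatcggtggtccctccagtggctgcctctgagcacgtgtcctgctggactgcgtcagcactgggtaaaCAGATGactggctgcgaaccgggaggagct
Neurod2: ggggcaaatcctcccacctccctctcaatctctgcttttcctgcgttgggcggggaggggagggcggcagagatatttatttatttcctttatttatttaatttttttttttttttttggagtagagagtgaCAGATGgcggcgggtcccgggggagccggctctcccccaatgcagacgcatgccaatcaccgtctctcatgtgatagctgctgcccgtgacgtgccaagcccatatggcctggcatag
The capitals in Gpr6 are the cyclic AMP response element TGACGTCA, and those in Rgs9, Cck and Neurod2 are the E-box CAGATG. Both strands were searched for each motif, the second strand as CATCTG for the E-box, and neither motif overlaps the other. A promoter entry was found for 12407 of the tested genes. TGACGTCA was present in 1.24% of the promoters of genes at least 2-fold higher in the striatum, 1.94% of those at least 2-fold lower, 2.5% of those of the other tested genes and 1.55% of all 32851 promoters. The E-box was present in 10.9%, 13.5%, 10.4% and 14.4% of the same promoter sets, in the same order. A match describes the letters of the window only.

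The 6 libraries held between 13453498 and 15493036 counts, and the first principal component of the 6, with 63.1% of the variance, separated the regions. The second component, with 13.8%, set replicate 3 of both regions (scores of -33.8 and -43.8) apart from the other libraries (13.4 to 25.7). Markers fixed for striatal projection neurons had a median level in the striatum libraries of 98.8%, 108% and 89.8% of the striatal mean, and of 3.71%, 2.45% and 6.88% in the prefrontal libraries. Markers of cortical glutamatergic neurons had medians of 115%, 115% and 70.8% of the prefrontal mean in the prefrontal libraries, and of 2.63%, 1.15% and 14.0% in the striatum libraries. Both tissues thus carried the markers of their labels, and replicate 3 of each region held more of the other region's markers than its companions did. Prefrontal replicate 3 also had the highest sum of olfactory bulb markers (587.6 against 37.6 to 100.6 in the other 5, in CPM, the counts of a gene scaled to a common library size), and striatum replicate 3 had the lowest choroid plexus sum of its group (3144 against 13490 and 17930). In both regions replicate 1 had little Xist RNA (0.2055 and 1.002 CPM) and replicates 2 and 3 had 55.91 to 89.5 CPM. Counts with both libraries numbered 3 left out, an alternative chosen after seeing the data, are given for some lists only. Other lists moved too, such as cortical transcription factors (22 lower in place of 26) and astrocytes (3 higher and 0 lower in place of 1 and 2).

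**Figure D1:**
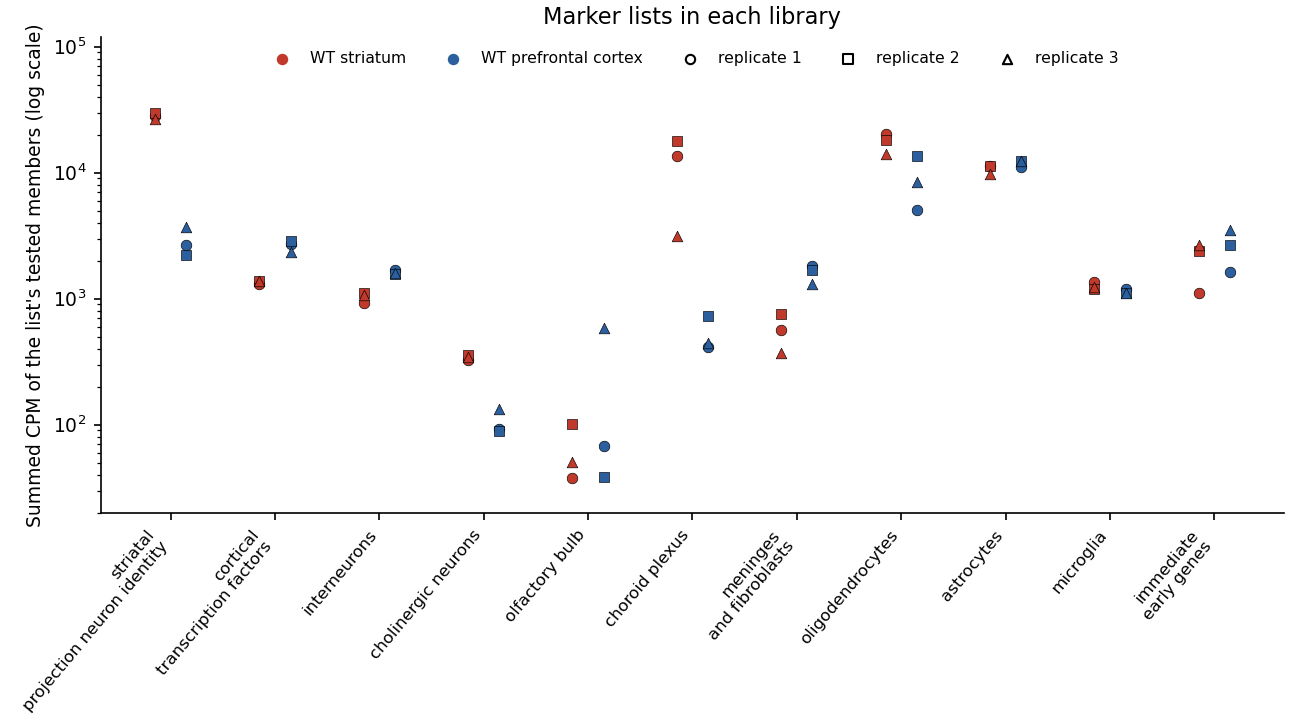
Summed CPM of the tested members of 11 gene lists (vertical axis, log scale) in each library of WT striatum (red) and WT prefrontal cortex (blue), with a symbol for each replicate number. The striatal identity sums lie between 26450 and 29850 CPM in the striatum and between 2241 and 3681 in the prefrontal cortex, while choroid plexus sums spread from 3144 to 17930 among the striatum libraries.

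Of 16841 genes tested, 5134 (30.5%) passed an adjusted p of 0.05, taken with the method of Benjamini and Hochberg from the quasi-likelihood test of edgeR. Higher levels in the striatum were found for 2365 genes (14.0% of those tested) and lower levels for 2769 (16.4%). At least 2-fold differences were found for 982 higher genes (5.83%) and 1182 lower genes (7.02%), and at least 8-fold differences for 224 and 190. The 3 libraries of one region lay all above or all below those of the other for 41.8% of tested genes, while 265 called genes had overlapping libraries. The median log2 difference over all tested genes was -0.0032. Protein-coding genes were called more often (32.2% of 14882) than long noncoding RNAs (19.3% of 1366) or processed pseudogenes (8.46% of 260). Of the 982 genes at least 2-fold higher in the striatum, the mean level in the WT cerebellum was below both forebrain regions for 484, between them for 403 and above both for 95. Of the 1182 lower genes it was below both for 420, between for 427 and above both for 335. In bulk tissue of this kind, fewer cells of a type and less RNA in each cell cannot be told apart.

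**Figure D2:**
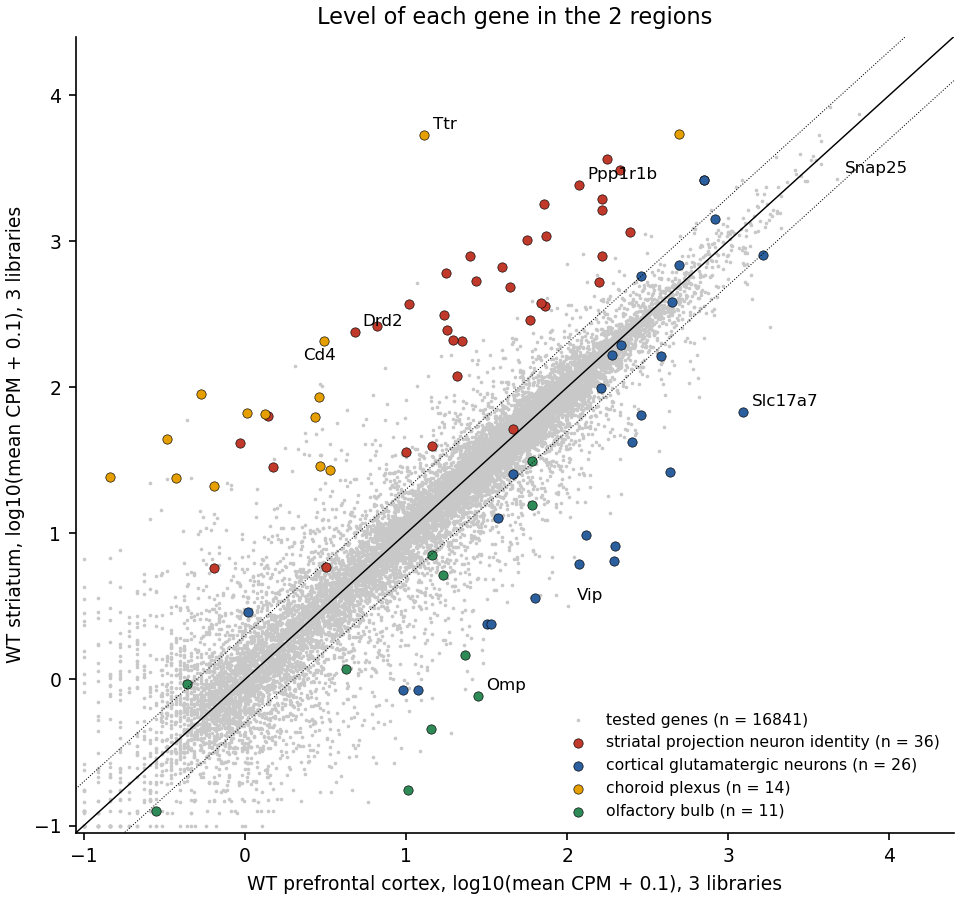
Mean level of each of 16841 tested genes in the WT prefrontal cortex (horizontal axis) and the WT striatum (vertical axis), both as log10 of CPM plus 0.1 over 3 libraries, with the line of equality solid and the 2-fold lines dotted. Called at least 2-fold differences place 34 of 36 striatal identity genes (red) and 13 of 14 choroid plexus genes (orange) toward the upper left, and 16 of 26 cortical glutamatergic genes (blue) and 6 of 11 olfactory bulb genes (green) toward the lower right.

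Genes that define striatal projection neurons were higher almost without exception. Of 36 tested members of that list, 35 were higher in the striatum, 34 of them at least 2-fold, with a median log2 difference of 3.68, and 0 were lower at an adjusted or an unadjusted p of 0.05, with DESeq2 or edgeR. The one that did not pass was the long noncoding RNA Dlx6os1, at 51.0, 61.1 and 42.6 CPM in striatum replicates 1 to 3 and 28.1, 28.3 and 81.6 CPM in the prefrontal replicates. It passed without prefrontal replicate 3 (log2 difference 0.87, adjusted p = 0.00230). Throughout, CPM values are listed in the order of replicates 1, 2 and 3. A log2 difference is the fitted value of striatum minus prefrontal cortex. Its standard error was derived as the absolute difference divided by the square root of the F statistic of the test.

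The receptors that sense dopamine and adenosine in these neurons were among its members. Drd1 (chr13:54051183-54055705, - strand; GRCm38, GENCODE M21) was at 474, 556.4 and 566 CPM in the striatum and at 22.3, 13.1 and 45.4 CPM in the prefrontal cortex, a 19.8-fold difference (log2 4.30 ± 0.46, adjusted p = 2.94e-06). Drd2 (chr9:49340627-49408177, + strand) was at 232, 274 and 212 CPM against 1.64, 2.65 and 9.77 CPM, 50.9-fold higher (log2 5.67 ± 0.70, adjusted p = 1.13e-05). For both, every striatum library lay far above every prefrontal one, and prefrontal replicate 3 was the highest of its group. Adora2a, the adenosine receptor that opposes Drd2 in indirect pathway neurons, was at 412, 370.5 and 338 CPM against 3.63, 3.32 and 24.1 CPM (log2 5.17 ± 0.65, adjusted p = 1.37e-05). Gpr6, a constitutively active receptor of the indirect pathway, was at 257, 289 and 239 CPM against 4.25, 2.85 and 12.5 CPM, 39.9-fold higher. These genes did not overlap between regions in any library. On a scale of CPM per kilobase of exon, the mean level in the striatum was 122 for Adora2a, 147 for Drd1, 94.0 for Drd2 and 146 for Gpr6. The length used here and below is that of all annotated exons of a gene merged. Comparisons between genes on this scale therefore depend also on the annotated transcripts and are only rough. The remaining dopamine receptors were low in both regions and did not pass. Drd3 was at 0.668, 1.04 and 1.24 CPM in the striatum and 0, 0 and 0.876 CPM in the prefrontal cortex, and passed as higher without prefrontal replicate 3 (adjusted p = 0.00318). Drd4 was at 0.200, 0.149 and 0.541 CPM against 0.890, 0.543 and 0.270 CPM, and Drd5 was at 2.14, 2.45 and 2.09 CPM against 0.959, 1.63 and 1.08 CPM.

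Behind the receptors, the dopamine and cyclic AMP list of 56 tested genes held 27 higher and 16 lower members, with a median log2 difference of 0.57. The striatal G protein subunits were higher together. Gnal, the alpha subunit that couples striatal Drd1 to cyclase, was at 806, 814 and 759 CPM against 169.7, 141 and 179 CPM (log2 2.28 ± 0.17, adjusted p = 9.58e-08). Gng7, its gamma partner, was at 3034, 3499 and 2744 CPM against 181, 146 and 313 CPM (14.5-fold). Gnai1, an inhibitory alpha subunit, went the other way at 144, 161 and 222 CPM against 316, 294 and 342 CPM (log2 -0.85 ± 0.12, adjusted p = 4.14e-05). Gnai2, at 246, 224 and 264 CPM against 269, 254 and 313 CPM, did not pass.

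Adenylyl cyclases, which make cyclic AMP, split by isoform. Adcy5, the main striatal cyclase, was at 1134, 1216 and 933 CPM against 63.3, 57.2 and 101 CPM, 14.8-fold higher (log2 3.89 ± 0.27, adjusted p = 6.88e-08). Adcy1 (log2 -1.80 ± 0.15), Adcy2 (-1.95 ± 0.22) and Adcy8 (-3.01 ± 0.27), of which Adcy1 and Adcy8 are stimulated by calcium, were lower in the striatum. Adcy8 was at 4.81, 5.80 and 7.96 CPM in the striatum and 52.8, 41.0 and 55.1 CPM in the prefrontal cortex, with no overlap. Adcy3 was higher by a smaller margin, at log2 0.61 ± 0.15.

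The phosphodiesterases that break cyclic nucleotides down split in the same manner. Pde10a was at 1087, 1113 and 857 CPM against 52.5, 44.98 and 72.2 CPM, 18.0-fold higher (log2 4.17 ± 0.26, adjusted p = 2.64e-08). Pde1b, activated by calmodulin, was at 1524, 1755 and 1648 CPM against 140.1, 129 and 222 CPM, 10.0-fold higher, and its relative Pde1a was lower at 37.3, 24.2 and 93.9 CPM against 251, 232 and 198 CPM (log2 -2.14 ± 0.39, adjusted p = 4.39e-04). Pde1a and Pde1b stood in opposite order in the regions, since the mean per kilobase of exon was 304 for Pde1b and 8.62 for Pde1a in the striatum, and 30.3 and 37.8 in the prefrontal cortex. Pde7b (log2 2.64 ± 0.28), Pde1c (1.63 ± 0.28), Pde8b (0.67 ± 0.16) and Pde4b (0.53 ± 0.099) were also higher, and Pde4a (-1.21 ± 0.098) and Pde4d (-1.14 ± 0.18) were lower. Pde9a, which hydrolyses cyclic GMP, was at 24.2, 13.1 and 29.5 CPM against 19.8, 17.3 and 20.96 CPM and did not pass.

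Protein kinase A, the main target of cyclic AMP, differed in its regulatory subunits. Prkar2b was at 203, 202 and 258 CPM against 127, 93.7 and 86.6 CPM (log2 1.11 ± 0.16, adjusted p = 5.16e-05), while Prkar1b was lower at 438, 426 and 653 CPM against 1459, 1451 and 1008 CPM (-1.37 ± 0.15, adjusted p = 4.04e-06) and Prkar2a was lower at log2 -0.68 ± 0.11. The catalytic subunit Prkacb was at 468, 505 and 542 CPM against 539, 497 and 412 CPM and did not pass. Several substrates and phosphatases of the cascade were higher. Ppp1r1b, which encodes an inhibitor of protein phosphatase 1 that dopamine switches on through cyclic AMP (chr11:98348404-98357796, + strand), was at 2369.5, 2702 and 2220.1 CPM against 94.2, 97.2 and 163 CPM, 20.6-fold higher (log2 4.36 ± 0.45, adjusted p = 1.84e-06). Arpp21, another cyclic AMP-regulated phosphoprotein, was at 2389, 2849.7 and 2611 CPM against 883, 578 and 668 CPM (3.69-fold), and Ptpn5, the striatum-enriched tyrosine phosphatase, at 1191, 1182 and 1073 CPM against 259.6, 258 and 219 CPM (4.68-fold). The phosphatase subunits Ppp1ca (log2 1.22 ± 0.0997) and Ppp3ca (1.09 ± 0.15) were higher by about the same amount, and no library of either overlapped between regions.

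Regulators of G protein signalling, which switch the alpha subunits off, differed in both directions among the members of the dopamine list. Rgs9, the striatal form, was at 762, 849 and 766 CPM against 11.4, 12.6 and 50.8 CPM, 31.7-fold higher (log2 4.99 ± 0.55, adjusted p = 3.79e-06), and its obligatory partner Gnb5 was at 385, 419.7 and 405 CPM against 176, 170.4 and 193 CPM (2.24-fold). Rgs2 (log2 1.70 ± 0.24), Rgs8 (1.66 ± 0.16), Rgs20 (1.32 ± 0.20) and Rgs4 (0.81 ± 0.19) were higher as well. Rgs7 was lower, at 83.4, 78.5 and 87.7 CPM against 185, 166 and 131 CPM (log2 -0.95 ± 0.12, adjusted p = 1.18e-05). Of the 7 tested genes for making, storing and degrading dopamine, 1, Ddc, passed (log2 0.68 ± 0.24, adjusted p = 0.0413), and its call was lost without prefrontal replicate 1 (adjusted p = 0.163) or striatum replicate 1, 2 or 3 (0.0534, 0.0643 and 0.116) and with the replicate number as a block over the 6 libraries (0.0761). Th, the first enzyme of dopamine synthesis, was at 14.0, 12.5 and 20.3 CPM in the striatum and 3.56, 5.50 and 171 CPM in the prefrontal cortex, where replicate 3 stood far above the other libraries. Its log2 difference of -1.95 ± 0.94 was 1.78 without that library (adjusted p = 0.0204), and without prefrontal replicate 1 or 2 it was -2.50 or -2.49 (adjusted p = 0.0341 and 0.0452).

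**Figure D3:**
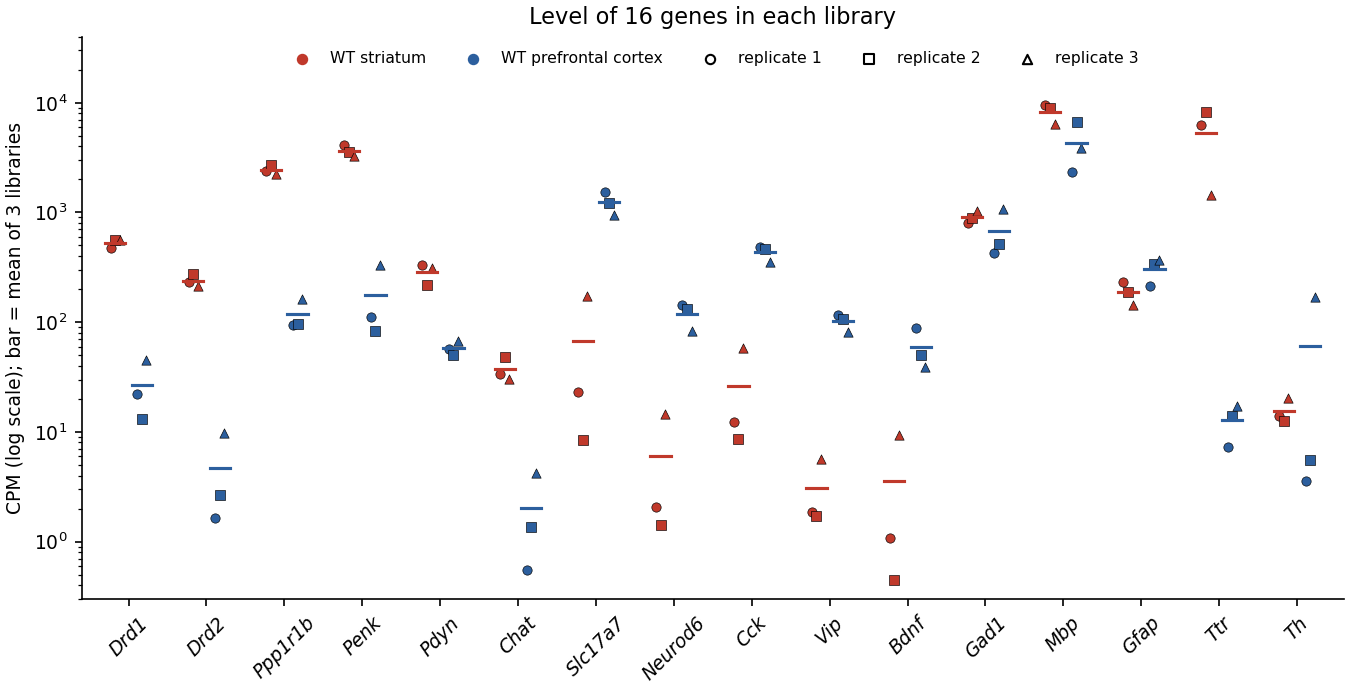
CPM of 16 genes (vertical axis, log scale) in each library of WT striatum (red) and WT prefrontal cortex (blue), with a symbol for each replicate number and a bar at the mean of 3 libraries. Drd1, Drd2, Ppp1r1b, Penk, Pdyn and Chat are separated in one direction and Slc17a7, Neurod6, Cck, Vip and Bdnf in the other, Gad1, Mbp, Gfap and Th have libraries that overlap, and replicate 3 of either region is often the nearest to the other region.

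The 3 peptide precursors of the projection neurons were higher in the striatum. Penk, the precursor of enkephalin in the indirect pathway (chr4:4133531-4138819, - strand), was at 4156, 3566 and 3268 CPM against 110.3, 83.0 and 334 CPM, 20.8-fold higher (log2 4.38 ± 0.55, adjusted p = 1.29e-05). Tac1, the precursor of substance P in the direct pathway, was at 461, 485 and 517 CPM against 28.5, 18.1 and 85.1 CPM (11.1-fold, adjusted p = 6.08e-04), and Pdyn, the precursor of dynorphin, at 333, 220.1 and 314 CPM against 57.5, 50.3 and 67.6 CPM (4.94-fold, adjusted p = 5.12e-05). None of the 3 overlapped between regions. Per kilobase of exon, the striatal mean was 2242 for Penk, 143 for Tac1 and 100.03 for Pdyn. Nts, the precursor of neurotensin, was higher at 65.6, 15.6 and 23.6 CPM against 3.15, 1.56 and 7.89 CPM (log2 3.06 ± 0.69, adjusted p = 0.00287).

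The other peptides that passed were lower in the striatum. Over all 23 tested precursors and granins, 4 were higher and 12 lower, with a median log2 difference of -0.98. Without striatum replicate 2 the lower count was 7, and the median ran from -0.51 without prefrontal replicate 3 to -1.73 without striatum replicate 3. Cck was at 12.4, 8.55 and 57.6 CPM in the striatum and 483, 469 and 353 CPM in the prefrontal cortex, 16.7-fold lower (adjusted p = 3.08e-05). Vip, made by a class of cortical interneurons, was at 1.87, 1.71 and 5.64 CPM against 117, 106 and 81.7 CPM, 33.3-fold lower (log2 -5.06 ± 0.80, adjusted p = 1.37e-04). Adcyap1, the precursor of the cyclase-activating peptide PACAP, was at 0.334, 0.223 and 2.16 CPM against 35.7, 18.7 and 22.8 CPM, and Grp was at 0.200, 0 and 0.386 CPM against 8.63, 4.55 and 5.32 CPM. In all 4 the striatum libraries were the low ones without overlap, and striatum replicate 3 was the highest of its group. Tac2 (log2 -2.58 ± 0.54), Chgb (-0.98 ± 0.11) and Chga (-0.63 ± 0.10) were also lower. Sst, the precursor of somatostatin, was at 119, 112 and 186 CPM against 215, 181 and 159 CPM and did not pass. Npy was lower by log2 -0.74 ± 0.23 (adjusted p = 0.0185), a call lost without striatum replicate 2 (adjusted p = 0.0796). Cartpt was at 1.80, 1.56 and 24.3 CPM against 11.6, 5.84 and 9.84 CPM, with a log2 difference of 0.015 ± 0.79 in which striatum replicate 3 stood above all other libraries. Without that library Cartpt was lower in the striatum (log2 -2.42, adjusted p = 0.0109).

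Receptors for peptides leaned the same way, with 4 higher and 13 lower of 26 tested. Without striatum replicate 2 the counts were 3 higher and 6 lower. Tacr1, the receptor of substance P, was at 56.0, 70.1 and 52.9 CPM against 3.84, 4.34 and 13.7 CPM (8.15-fold higher, adjusted p = 4.61e-04), and Oprk1, the kappa opioid receptor of dynorphin, at 26.1, 29.8 and 46.5 CPM against 12.4, 4.21 and 8.56 CPM (4.07-fold higher, adjusted p = 0.00246). Tacr3 was higher as well (log2 2.70 ± 0.63). Oprd1, the delta opioid receptor of enkephalin, did not pass, at 8.01, 17.3 and 13.1 CPM against 6.51, 13.0 and 13.6 CPM. Cckbr, the receptor of cholecystokinin, was lower together with its ligand, at 14.2, 8.10 and 26.9 CPM against 142, 125 and 119.7 CPM (log2 -2.98 ± 0.44, adjusted p = 6.77e-05). The somatostatin receptors Sstr1 (log2 -2.38 ± 0.43) and Sstr3 (-3.32 ± 0.52), Crhr1 (-2.15 ± 0.29) and the oxytocin receptor Oxtr (-1.76 ± 0.40) were lower too.

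The receptors for serotonin, noradrenaline, acetylcholine, histamine and cannabinoids were divided, with 9 higher and 14 lower of 33 tested. Among serotonin receptors Htr1b was at 37.7, 45.9 and 28.1 CPM against 4.93, 3.19 and 3.37 CPM (9.71-fold higher, adjusted p = 2.06e-07) and Htr1d was higher by log2 3.60 ± 0.68, whereas Htr7 (-2.18 ± 0.40) and Htr5a (-1.56 ± 0.30) were lower. Htr1a was also lower, at 1.14, 1.04 and 6.80 CPM against 27.0, 16.7 and 15.1 CPM (log2 -2.72 ± 0.66), and its difference was larger without striatum replicate 3 (log2 -4.14). Adra2c, the alpha-2 adrenergic receptor of striatal neurons, was at 145, 124 and 135 CPM against 34.9, 32.9 and 36.3 CPM (3.88-fold higher, adjusted p = 2.06e-07). The alpha-1 receptor Adra1d was at 0.200, 0 and 0.464 CPM against 12.1, 15.4 and 8.90 CPM (log2 -5.74 ± 0.65, adjusted p = 4.95e-06), with Adra1b (-3.17 ± 0.33) and Adra2a (-1.97 ± 0.39) lower as well. Muscarinic Chrm4, the form of direct pathway neurons, was higher at 26.7, 23.3 and 27.2 CPM against 3.84, 7.80 and 10.3 CPM (log2 1.81 ± 0.33), Chrm3 was lower (-2.24 ± 0.30) and Chrm1, with a log2 difference of 0.19 ± 0.19, did not pass. The cannabinoid receptor Cnr1 (log2 1.20 ± 0.15) and the histamine receptor Hrh3 (0.97 ± 0.16) were higher.

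Transcription factors of the ganglionic eminences and striatum were higher for 16 of 25 tested members and lower for 2, with a median log2 difference of 1.45. With both libraries numbered 3 left out the counts were 19 and 1, and without striatum replicate 1 or 2 the lower count was 0. Six3, needed for indirect pathway neurons, was at 44.3, 42.7 and 38.1 CPM against 0.479, 0.136 and 1.89 CPM (49.4-fold higher, adjusted p = 1.14e-04). Rarb, a retinoic acid receptor, was at 232, 255 and 249 CPM against 14.2, 14.9 and 24.8 CPM (13.7-fold higher, adjusted p = 4.55e-07), and its partner Rxrg was at 241, 375 and 322 CPM against 15.6, 7.46 and 28.5 CPM (18.2-fold higher, adjusted p = 5.95e-06). Each of these was separated between regions by more than the spread within either. Bcl11b, which marks projection neurons of the striatum and deep cortical layers, was at 383, 361 and 333 CPM against 68.5, 55.6 and 95.3 CPM (4.91-fold higher). Foxp1 (log2 1.80 ± 0.19), Foxp2 (2.52 ± 0.36), Ebf1 (1.88 ± 0.15), Meis2 (1.73 ± 0.33) and Zfp503 (3.37 ± 0.40) were higher. Nkx2-1, of the medial eminence, was at 4.61, 6.02 and 5.25 CPM against 0.274, 0.136 and 0.202 CPM (log2 4.64 ± 0.33, adjusted p = 1.11e-06). Isl1, a factor of direct pathway and cholinergic neurons, was at 28.7, 26.8 and 29.0 CPM against 0, 0.136 and 4.04 CPM (log2 4.32 ± 0.86, adjusted p = 0.00142), where prefrontal replicate 3 was the only prefrontal library above 1 CPM. Without that library its log2 difference was 8.53, a fitted value against a level near 0.

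A few factors of interneuron precursors and of olfactory bulb neurons departed from this direction, and they moved with prefrontal replicate 3. Dlx1 was lower, at 13.6, 13.0 and 21.7 CPM against 23.1, 26.5 and 86.9 CPM (log2 -1.50 ± 0.42, adjusted p = 0.0114), and was not called without prefrontal replicate 3 (log2 -0.62, adjusted p = 0.167), without striatum replicate 1 (0.0526) or without striatum replicate 2 (0.0569). Tshz1 was at 43.1, 44.1 and 47.7 CPM against 22.8, 28.3 and 93.5 CPM (log2 -0.10 ± 0.34) and was at log2 0.82 without prefrontal replicate 3 (adjusted p = 0.00123). The part of olfactory bulb tissue in these values was not tested.

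Cortical transcription factors were lower for 26 of 35 tested members and higher for 3 (median log2 difference -1.49). Tbr1, of early-born cortical neurons, was at 5.81, 0.669 and 22.6 CPM in the striatum and 149, 150.1 and 93.6 CPM in the prefrontal cortex (13.6-fold lower, adjusted p = 2.48e-04). Neurod6 was at 2.07, 1.41 and 14.7 CPM against 142, 130.5 and 83.4 CPM (19.9-fold lower, adjusted p = 2.53e-05). In both of them striatum replicate 3 was the highest striatum library and prefrontal replicate 3 the lowest prefrontal one, and the regions did not overlap. Neurod2 was at 0.801, 0.743 and 8.96 CPM against 68.4, 74.4 and 46.8 CPM (log2 -4.21 ± 0.52), and at log2 -6.32 without striatum replicate 3. Emx1 (log2 -3.64 ± 0.59), Fezf2 (-3.18 ± 0.40), Bhlhe22 (-4.65 ± 0.41), Cux2 (-2.45 ± 0.27) and Mef2c (-1.94 ± 0.15) were lower. The 3 higher members were Tle4 (log2 1.27 ± 0.12), Pou3f1 (1.45 ± 0.30) and Lmo3 (1.38 ± 0.31). Tcf4, a factor shared by both regions, had the smallest adjusted p of all lower genes (2.64e-08) with 165, 149 and 165 CPM against 388, 394 and 377 CPM, and it was chosen after its values were seen.

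**Figure D4:**
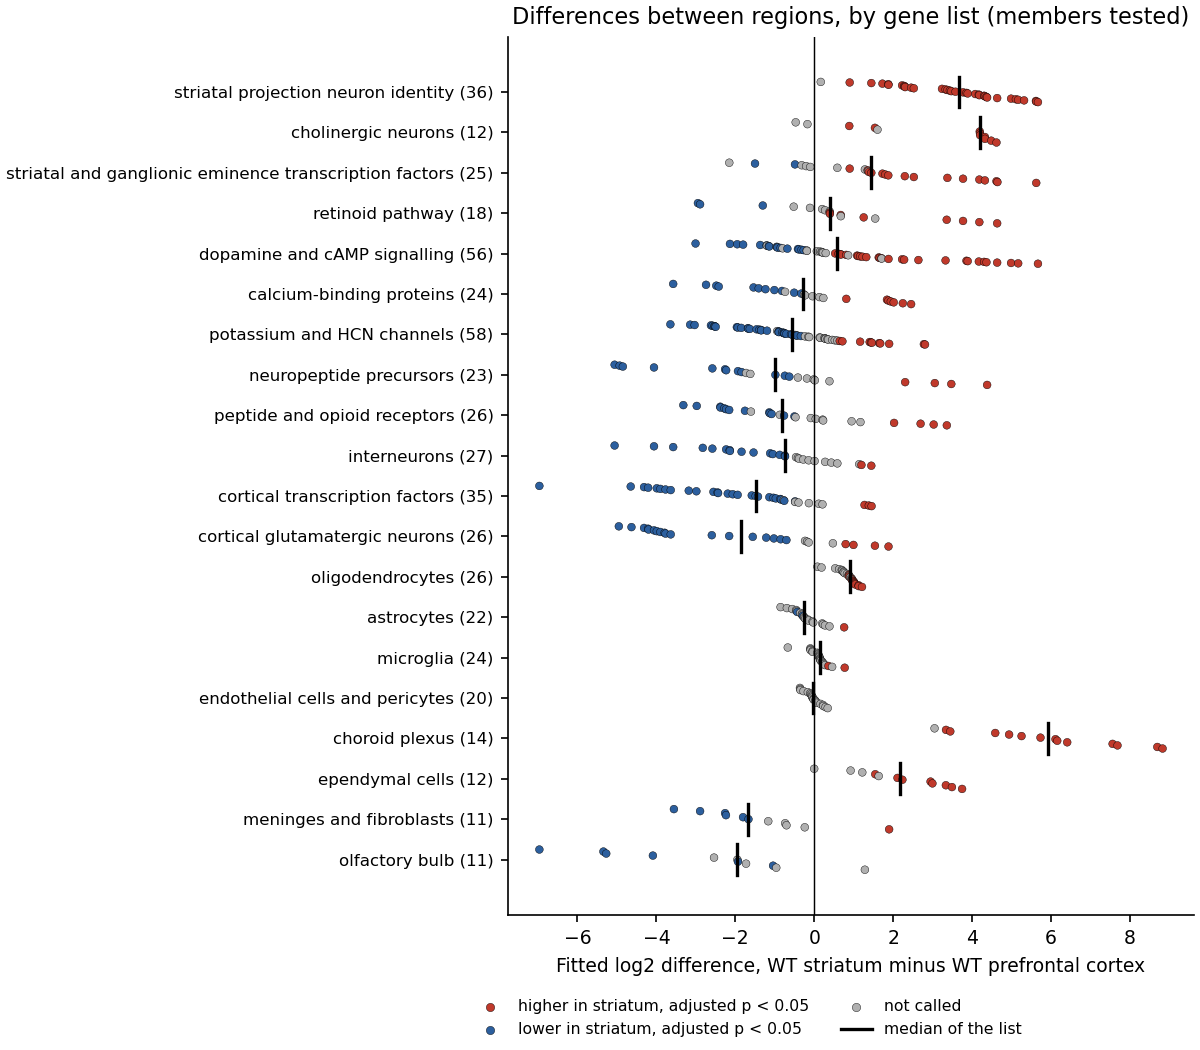
Fitted log2 difference (horizontal axis, WT striatum minus WT prefrontal cortex) of every tested member of 20 gene lists, with the number of members in parentheses, red and blue points for genes called higher and lower in the striatum, grey points for genes not called, and a black bar at the median of each list. Medians run from 5.92 for the choroid plexus and 4.20 for cholinergic neurons to -1.86 for cortical glutamatergic neurons and -1.95 for the olfactory bulb, and the endothelial list is grey throughout.

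Genes of cortical glutamatergic neurons were lower for 18 of 26 tested members and higher for 4. Of these, 16 lower and 2 higher members differed at least 2-fold, and log2 differences in the list ran from -4.95 to 1.88. The list's sum was 7163, 7521 and 7521 CPM in the striatum and 9809, 8834 and 6694 CPM in the prefrontal cortex. Prefrontal replicate 3 thus lay below every striatum library in this sum. Slc17a7, the vesicular glutamate transporter of cortical neurons (chr7:45163949-45176142, + strand), was at 23.3, 8.40 and 171 CPM against 1551, 1213 and 958 CPM, 18.4-fold lower (log2 -4.20 ± 0.70, adjusted p = 2.31e-04). Striatum replicate 3 held several times the level of the other striatum libraries, and with both libraries numbered 3 left out the log2 difference was -6.44. Slc17a6, another vesicular transporter, was at 0.735, 1.34 and 4.87 CPM against 31.6, 34.0 and 29.0 CPM (log2 -3.79 ± 0.89). Slc30a3, the zinc transporter of glutamatergic vesicles, was at 2.40, 1.49 and 15.3 CPM against 239, 225 and 120.4 CPM (30.9-fold lower, adjusted p = 8.55e-06), and Nrn1 was at 5.34, 4.98 and 14.0 CPM against 266, 214 and 118 CPM (24.8-fold lower). Slc17a8, the transporter that cholinergic interneurons use, was higher at 2.67, 3.57 and 2.09 CPM against 0.822, 0.882 and 1.15 CPM (log2 1.54 ± 0.38, adjusted p = 0.00861). Bdnf, the neurotrophin that cortical neurons supply to the striatum, was at 1.07, 0.446 and 9.27 CPM in the striatum and 88.0, 50.6 and 38.8 CPM in the prefrontal cortex (16.7-fold lower, adjusted p = 1.42e-04), and at log2 -6.23 without striatum replicate 3. Its receptor Ntrk2 was at 626, 550.2 and 460.2 CPM against 593, 520.1 and 564 CPM and did not pass.

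Markers used to tell cortical layers apart had no common direction, with 8 higher and 12 lower of 31 tested. Of the upper and middle layers, Cux2, Rasgrf2 (log2 -2.20 ± 0.23) and Rorb (-1.14 ± 0.24) were lower. Several deep-layer markers are also genes of striatal projection neurons and were higher, such as Foxp2, Bcl11b and Pcp4, the last at 375, 398 and 276 CPM against 77.7, 78.2 and 104 CPM (4.04-fold). Col5a1 (log2 -2.74 ± 0.34), Rprm (-2.45 ± 0.40) and Ntsr1 (-2.23 ± 0.50) were deep-layer markers that were lower.

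GABA neurons of the cortex left lower levels in the striatum for 15 of 27 tested interneuron genes, against 2 higher. With both libraries numbered 3 left out the counts were 9 lower and 3 higher, and without striatum replicate 2 the lower count was also 9. Crhbp was at 4.21, 3.20 and 12.4 CPM against 52.1, 48.6 and 39.2 CPM (log2 -2.82 ± 0.47, adjusted p = 2.06e-04), Npas1 was lower by log2 -2.14 ± 0.41 and Erbb4 by -0.74 ± 0.16. Pvalb, of fast-spiking cells, was at 16.4, 15.6 and 11.8 CPM against 26.8, 70.0 and 30.9 CPM (log2 -1.54 ± 0.48, adjusted p = 0.0230). The prefrontal replicate 2 stood above the other libraries for Pvalb, the adjusted p was 0.158 without it, and the call was also lost without striatum replicate 1 (0.0539), 2 (0.0617) or 3 (0.0760). Calb2 was at 5.34, 6.54 and 8.50 CPM against 18.6, 17.2 and 206 CPM, and its log2 difference of -3.57 ± 0.82 was -1.40 without prefrontal replicate 3 (adjusted p = 0.0515). Nos1, of an interneuron class that both regions share, was at 28.1, 27.1 and 28.6 CPM against 30.5, 15.3 and 37.5 CPM and did not pass. Pthlh was higher (log2 1.45 ± 0.38). Among the genes that make and carry GABA, Gad2 was at 470.0, 433 and 508 CPM against 161, 151 and 309 CPM (log2 1.18 ± 0.21, adjusted p = 3.95e-04) and the vesicular transporter Slc32a1 was at 74.7, 75.6 and 73.8 CPM against 20.9, 23.0 and 36.0 CPM (2.80-fold higher). Gad1 was at 804, 893 and 1036 CPM against 425, 511 and 1081 CPM and did not pass, with prefrontal replicate 3 above all other libraries. Gad1 passed as higher without that library (log2 0.96, adjusted p = 3.87e-04) and with a replicate block over the 12 forebrain libraries (0.55, adjusted p = 0.0405).

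The genes of cholinergic interneurons were higher for 9 of 12 tested members, with a median log2 difference of 4.20. At an unadjusted p of 0.05 in edgeR 10 were higher and 0 were lower, and DESeq2 called 10 higher and 0 lower. Chat, which makes acetylcholine, was at 33.7, 48.2 and 30.5 CPM against 0.548, 1.36 and 4.18 CPM (18.4-fold higher, adjusted p = 1.13e-05). The choline transporter Slc5a7 was at 43.7, 47.2 and 36.9 CPM against 1.71, 0.950 and 4.25 CPM (18.4-fold higher), and Slc18a3, which loads acetylcholine into vesicles, was higher by log2 4.19 ± 0.52. All 3 were well separated, with prefrontal replicate 3 the highest of its group. Ache, the enzyme that breaks acetylcholine down, was higher by log2 0.89 ± 0.14. Chat, Lhx8 and Nkx2-1 are also genes of the septum and basal forebrain, and the septal list had 6 higher and 1 lower of 10. Zic1, Zic2 and Zic4 did not pass, and the part of septal tissue in these values was not tested.

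Ionotropic glutamate receptors were lower more often than higher, mostly by less than the genes above. Of 18 ionotropic subunits 4 were higher and 7 lower. Among AMPA subunits Gria4 was at 71.9, 74.0 and 87.6 CPM against 132, 119 and 134 CPM (log2 -0.72 ± 0.086, adjusted p = 7.84e-06) and Gria2, the most abundant of them, was at 1052, 1088 and 1128 CPM against 950.0, 979 and 1022 CPM and did not pass. The kainate subunit Grik2 was at 103, 102 and 113 CPM against 45.1, 41.3 and 51.3 CPM (2.31-fold higher, adjusted p = 1.51e-07), while Grik1 (log2 -1.81 ± 0.28) and Grik4 (-1.19 ± 0.20) were lower. Among NMDA subunits Grin3a (-1.49 ± 0.29) and Grin2a (-0.85 ± 0.18) were lower, and Grin1, the obligatory subunit, was at 215, 214 and 220.0 CPM against 208, 226 and 195 CPM and did not pass. Of the metabotropic receptors, Grm5 was at 174, 188 and 186 CPM against 93.1, 72.3 and 99.5 CPM (log2 1.05 ± 0.20, adjusted p = 7.01e-04) and Grm4 was higher by 1.04 ± 0.17. Grm2 was the reverse, at 3.47, 1.34 and 6.34 CPM against 77.9, 89.4 and 89.0 CPM, 23.1-fold lower (adjusted p = 1.61e-06). Grm3, in the same group as Grm2, was at 195, 203 and 230.1 CPM against 169, 214 and 163 CPM and did not pass.

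GABA receptor subunits differed between the regions in both directions. Gabra4 (log2 1.11 ± 0.13), Gabrd (1.10 ± 0.17) and Gabrg3 (0.91 ± 0.18) were higher in the striatum, and Gabra3 (-2.08 ± 0.24), Gabra5 (-1.42 ± 0.36) and Gabrb2 (-0.65 ± 0.11) were lower. Gabra4 was at 388, 399.6 and 365 CPM against 191, 185 and 157 CPM, without overlap. Of the GABA-B pair, Gabbr2 was at 43.2, 52.2 and 74.7 CPM against 277, 252 and 189 CPM (4.22-fold lower, adjusted p = 4.46e-07), and Gabbr1 was at 465, 445 and 461 CPM against 425, 406 and 345 CPM and did not pass.

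Among ion channels, potassium and HCN channels were mostly lower, with 11 higher and 32 lower of 58 tested and a median log2 difference of -0.57. Kcnab1, an auxiliary subunit of the Kv1 channels, was at 647, 770.0 and 685 CPM against 101, 109 and 90.0 CPM (7.00-fold higher, adjusted p = 1.51e-09). The Kv1 subunits Kcna4 (log2 1.90 ± 0.29) and Kcna5 (2.78 ± 0.50) were higher with it, as were Kcnd2 (1.16 ± 0.13) and its partner Kcnip2 (1.40 ± 0.37), which form A-type currents, and Kcnj2 (1.44 ± 0.28), an inward rectifier of projection neurons. The inward rectifiers that G proteins open, known as girk channels, were lower. Kcnj3 was at 8.08, 5.65 and 11.9 CPM against 47.9, 48.8 and 49.9 CPM (5.73-fold lower, adjusted p = 1.12e-07), Kcnj9 was lower by log2 -1.96 ± 0.18, and Kcnj6 was at 1.14, 0.297 and 6.03 CPM against 22.9, 21.4 and 20.7 CPM, with a log2 difference of -3.14 ± 0.58 that was -4.86 without striatum replicate 3. Of the fast Kv3 family Kcnc1 (log2 -0.90 ± 0.14), Kcnc2 (-2.50 ± 0.40) and Kcnc4 (-3.03 ± 0.32) were lower. Hcn2, an HCN channel, at 127, 127 and 108 CPM against 86.4, 137 and 107 CPM, did not pass.

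Sodium and calcium channel genes were balanced, with 9 higher and 8 lower of 27. The sodium channel subunit Scn4b was at 651, 341 and 993 CPM against 19.6, 28.1 and 69.6 CPM (16.9-fold higher, adjusted p = 3.61e-05), with a wide spread among the striatum libraries but no overlap. Of the auxiliary calcium channel subunits, Cacna2d3 was at 553, 593 and 615 CPM against 161, 170.1 and 129 CPM (3.83-fold higher, adjusted p = 5.76e-08), and Cacng4 (2.08 ± 0.28), Cacna2d2 (1.38 ± 0.14) and Cacnb2 (1.20 ± 0.099) were higher, while Cacna2d1 (-0.99 ± 0.095) and Cacnb3 (-0.77 ± 0.089) were lower. The pore subunit Cacna1g, of low-threshold currents, was at 3.87, 1.93 and 6.95 CPM against 19.6, 23.0 and 29.3 CPM (log2 -2.50 ± 0.35, adjusted p = 4.12e-05), and its relative Cacna1h was higher at 41.6, 43.7 and 36.3 CPM against 16.7, 17.1 and 25.8 CPM (1.03 ± 0.22).

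Calcium-binding proteins divided, with 7 higher and 11 lower of 24. Hpca, the neuronal calcium sensor hippocalcin, was at 1149, 1274 and 956 CPM against 262, 367 and 289 CPM (3.68-fold higher, adjusted p = 1.13e-06), and Necab2 was higher by log2 2.46 ± 0.40. The related sensors Ncald (-2.42 ± 0.30) and Vsnl1 (-2.48 ± 0.30) were lower, Vsnl1 at 101, 67.8 and 178 CPM against 692, 737 and 505 CPM. Strn, the calmodulin-binding scaffold striatin, had the smallest adjusted p of all genes (1.08e-10), with 217, 226 and 204 CPM against 42.5, 47.4 and 46.8 CPM (4.74-fold higher). Calmodulin itself was at similar levels, Calm2 being at 3447, 3595 and 3726 CPM against 3454, 3329 and 3041 CPM and not past the test.

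The calmodulin-dependent kinases exchanged subunits. Camk2b was at 1455, 1428 and 1398 CPM against 783, 803 and 879.9 CPM (log2 0.80 ± 0.11, adjusted p = 2.81e-05) and Camk4 was higher by 1.15 ± 0.19, whereas Camk2a was at 869.8, 805 and 746 CPM against 1883, 1932 and 1104 CPM (-1.02 ± 0.21, adjusted p = 0.00131) and Camk2d (-1.86 ± 0.38) and Camk2g (-1.55 ± 0.19) were lower. Per kilobase of exon, Camk2b exceeded Camk2a in the striatum (means of 156 and 108), and in the prefrontal cortex the means were 90.1 and 219.7. Among postsynaptic scaffold genes, Shank3 (log2 0.72 ± 0.16) and Dlgap3 (0.70 ± 0.12), which act together at corticostriatal synapses, were higher. Shank1 (-2.46 ± 0.22), Dlgap1 (-1.93 ± 0.14) and Homer2 (-2.30 ± 0.24) were lower, and Dlg4, the main scaffold of excitatory synapses, was at 25.2, 27.1 and 29.1 CPM against 28.7, 28.4 and 31.7 CPM and did not pass.

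The retinoid pathway had 8 higher and 3 lower members of 18 tested. Besides Rarb and Rxrg, the binding protein Crabp1 was at 15.2, 15.1 and 13.7 CPM against 0.548, 0.339 and 3.37 CPM (log2 3.36 ± 0.59, adjusted p = 4.77e-04). The enzymes that make retinoic acid, Aldh1a2 (-2.89 ± 0.51) and Aldh1a3 (-2.95 ± 0.64), were lower in the striatum, and Aldh1a2 is also a gene of the meninges.

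Genes that the study names, in roles that include its target Inpp5a and the striatal cell marker Ppp1r1b, were also read for their regional level. Of these 19 genes, which the study chose partly on libraries of this series, so that their count is not independent evidence, 12 were higher and 1 lower. Inpp5a, which removes a phosphate from inositol trisphosphate, was at 92.7, 104 and 97.8 CPM against 67.4, 62.5 and 72.2 CPM (log2 0.55 ± 0.12, adjusted p = 0.00209). Itpr1, the receptor that inositol trisphosphate opens, was at 418, 452 and 346 CPM against 217, 250.4 and 195 CPM (0.87 ± 0.17, adjusted p = 6.98e-04), and Tomm70a, a receptor of mitochondrial protein import, was at 666, 612 and 602 CPM against 226, 197 and 211 CPM (2.97-fold higher, adjusted p = 2.64e-08). In the wider list of inositol trisphosphate signalling 6 were higher and 4 lower of 25, or 40.0% against 30.5% of all tested genes. Its phospholipases parted, with Plcb1 higher (log2 0.62 ± 0.11) and Plcb4 lower (-1.43 ± 0.22). Tbp, mutated in the disease model, was at 39.5, 49.6 and 44.0 CPM in the striatum and 36.6, 33.5 and 42.1 CPM in the prefrontal cortex and did not pass (log2 0.25 ± 0.11, adjusted p = 0.0882). Without striatum replicate 1 or prefrontal replicate 3 it passed as higher (adjusted p = 0.0416 and 0.0312). Of 9 polyglutamine disease genes 1 was higher and 2 were lower, a share of 33.3% where 30.5% of all tested genes were called, among them Atxn2 at 96.9, 101 and 102 CPM against 143, 136 and 117 CPM (log2 -0.40 ± 0.075, adjusted p = 5.90e-04). The higher count was 0 in several alternatives, among them only the 6 libraries and the replicate block over the 6 or all 19 libraries. It was also 0 without prefrontal replicate 2 or striatum replicate 2. Atxn3, the gene of spinocerebellar ataxia 3, was at 16.9, 21.6 and 21.9 CPM against 16.3, 14.7 and 19.7 CPM and did not pass.

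Large fold differences toward the striatum were found for genes of the choroid plexus, the tissue in the ventricles that makes cerebrospinal fluid. Of 14 tested choroid genes 13 were higher in the striatum. The count was 5 without prefrontal replicate 1, 2 or 3, and 9 with both libraries numbered 3 left out. The list's sum was 13490, 17930 and 3144 CPM in the striatum and 417, 724 and 446 CPM in the prefrontal cortex. Ttr, the transthyretin carrier of thyroid hormone, was at 6309, 8275 and 1434 CPM against 7.33, 14.0 and 17.3 CPM (log2 8.69 ± 2.71, adjusted p = 0.0217). The call for Ttr was lost without any 1 of the prefrontal libraries (adjusted p = 0.0766, 0.0699 and 0.0614), although the regions did not overlap. Otx2, the factor that specifies this epithelium, was at 24.2, 31.1 and 7.65 CPM against 0.137, 0.339 and 1.15 CPM (log2 5.25 ± 0.79, adjusted p = 8.41e-05), and Folr1, a folate receptor, was at 107, 139.7 and 24.3 CPM against 0.479, 0.543 and 0.270 CPM. Slc4a5, a bicarbonate transporter, was at 26.04, 42.9 and 4.17 CPM against 0.0685, 0.0678 and 0 CPM, where the prefrontal values stand for at most 1 count each. In all of these, striatum replicate 3 was the lowest of its group by a wide margin. Of the 10 higher genes with the largest fold, among genes at a mean of at least 10 CPM whose regions did not overlap, 9 had that pattern (Slc4a5, Ttr, Folr1, Kcne2, Cldn2, Steap1, F5, Tmem72 and Prr32). Without prefrontal replicate 1, 2 or 3 the calls were lost for Kcne2 (adjusted p = 0.0638, 0.0597 and 0.0550) and Tmem72 (0.0508, 0.0600 and 0.0511), and without replicate 1 for Prr32 (0.0578). The tenth was Cd4, the T cell coreceptor, at 119, 153 and 148 CPM against 1.30, 1.83 and 2.70 CPM (71.8-fold higher, log2 6.17 ± 0.58, adjusted p = 8.51e-07; chr6:124864692-124888221, - strand), which did not share it. Ptprc, the pan-leukocyte gene, was at 3.87, 4.24 and 2.63 CPM against 3.70, 4.61 and 3.17 CPM and did not pass. Ependymal genes of the ventricle wall were higher for 8 of 12, among them Foxj1 at 17.1, 17.2 and 7.19 CPM against 1.44, 2.31 and 1.62 CPM (log2 2.95 ± 0.48, adjusted p = 1.83e-04). The proliferation genes Mki67 (log2 1.87 ± 0.31) and Top2a (1.77 ± 0.44) were higher, and Dcx, of migrating neuroblasts, was lower at 14.3, 15.7 and 16.5 CPM against 32.3, 20.02 and 74.5 CPM, with prefrontal replicate 3 the highest (log2 -1.45 ± 0.35, adjusted p = 0.00434). Without that library its log2 difference was -0.76 (adjusted p = 0.0383).

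On the lower side the 10 largest folds, among genes at a mean of at least 10 CPM without overlap, were those of Ovol2, Adra1d, Omp, S100a5, Vip, Slc30a3, Hkdc1, Adcyap1, Bhlhe22 and Nrn1. Ovol2, a zinc finger factor, was at 0.0668, 0.223 and 0.695 CPM against 14.2, 30.1 and 12.9 CPM (log2 -5.87 ± 0.69, adjusted p = 7.12e-06), and Hkdc1, a hexokinase domain protein, was at 0.735, 0.372 and 1.16 CPM against 29.0, 26.3 and 14.4 CPM (log2 -4.93 ± 0.47, adjusted p = 9.22e-07). Omp, the marker of olfactory sensory neurons, was at 0.868, 0.446 and 0.695 CPM against 29.0, 0.882 and 53.1 CPM and S100a5 at 0.534, 0.297 and 0.232 CPM against 8.22, 1.02 and 33.4 CPM. Both were high in prefrontal replicates 1 and 3 and near the striatal level in replicate 2, and without prefrontal replicate 3 the adjusted p was 0.0864 for Omp and 0.155 for S100a5. Both were also lost without striatum replicate 1 (0.0880 and 0.0928), 2 (0.104 and 0.112) or 3 (0.0814 and 0.0979), and Omp without prefrontal replicate 1 (0.0541). Over the olfactory bulb list 0 were higher and 6 lower of 11, and 0 and 7 at an unadjusted p of 0.05 in edgeR, with 0 and 5 in DESeq2. Leaving out both libraries numbered 3 gave 1 higher and 1 lower, leaving out prefrontal replicate 3 gave 2 higher and 1 lower, and leaving out striatum replicate 1 or 2 gave 3 lower. The replicate block over the 6 libraries gave 3 lower. By difference of mean CPM, the lower genes were led by Snap25, of the synaptic release machinery, at 2444, 2597 and 2923 CPM against 4714, 5402 and 4018 CPM, and Olfm1, a secreted neuronal glycoprotein, at 218, 172 and 388 CPM against 2214, 1805 and 1445 CPM (7.03-fold lower), then Slc17a7, Ptgds and the astrocytic matrix gene Sparcl1 (log2 -0.78 ± 0.12). Ptgds is also a gene of the meninges, whose list had 6 lower and 1 higher of 11 and sums of 566, 758 and 368 CPM in the striatum and 1810, 1689 and 1316 CPM in the prefrontal cortex. The corresponding top genes by mean CPM on the higher side were Ttr, Enpp2, Penk, Gng7 and Ppp1r1b, and Enpp2, made by choroid plexus and oligodendrocytes, was at 6340, 8435 and 1521 CPM against 394, 694 and 405 CPM (log2 3.45 ± 1.17, adjusted p = 0.0337). Its call was lost without prefrontal replicate 1, 2 or 3 (adjusted p = 0.103, 0.0675 and 0.0935) and without striatum replicate 1 or 2 (0.0658 and 0.0930). The part of adjoining tissue in these values was not tested.

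Most other glial and vascular lists held fewer calls than the 30.5% of all tested genes. Astrocyte genes had 1 higher and 2 lower of 22 tested, with 2 and 8 at an unadjusted p of 0.05, and with a replicate block over the 12 forebrain libraries 6 were lower. The lower count was 4 without prefrontal replicate 1 and 0 without striatum replicate 1, 2 or 3, and the higher count was 4 without striatum replicate 3. Gfap was at 234, 190.0 and 143 CPM against 214, 336 and 367 CPM and did not pass with all 6 libraries, but was lower without prefrontal replicate 1 (log2 -0.89, adjusted p = 0.0433). In contrast the bicarbonate transporter Slc4a4 was higher at 189, 191 and 173 CPM against 76.0, 94.4 and 157 CPM (log2 0.76 ± 0.17, adjusted p = 0.00286). Microglial genes had 2 higher and 0 lower of 24, among them the lysosomal gene Cd68 (log2 0.77 ± 0.14, adjusted p = 4.69e-04). Their list sums were 1361, 1203 and 1229 CPM in the striatum and 1186, 1105 and 1119 CPM in the prefrontal cortex. Endothelial and pericyte genes had 0 higher and 0 lower of 20 in edgeR, 1 and 1 at an unadjusted p of 0.05, and 0 and 0 in DESeq2, and the 5 blood genes had 0 and 0 by each of the same counts. The log2 differences of the blood genes ran from -0.53 to -0.42. In edgeR 2 of them were lower with the replicate block over the 6 libraries, and 1 with only the 6 libraries in the fit.

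Oligodendrocyte genes leaned toward the striatum without a stable count. Of 26 tested 12 were higher and 0 lower, and the median log2 difference was 0.90. DESeq2 called 17 higher, the replicate block over the 12 forebrain libraries called 3, and leaving out both libraries numbered 3 called 4. Without prefrontal replicate 1 the count was 0, and without prefrontal replicate 2 it was 20. It was 2 without prefrontal replicate 3, 1 without striatum replicate 1 and 5 without striatum replicate 2. Mbp, the myelin basic protein, was at 9629, 8926 and 6411 CPM against 2362, 6613 and 3882 CPM (adjusted p = 0.0614) and did not pass. Mbp passed without prefrontal replicate 2 (adjusted p = 0.0137) or striatum replicate 3 (0.0477). Prefrontal replicate 2 lay above the lowest striatal library for Mbp, and prefrontal replicate 1 was the lowest of the 6. Fa2h, an enzyme of myelin lipids, was higher at 132, 120.3 and 94.6 CPM against 32.1, 82.6 and 43.9 CPM (log2 1.13 ± 0.31, adjusted p = 0.0105), a call lost without prefrontal replicate 1 (adjusted p = 0.0541). Precursor genes had 0 higher and 1 lower of 9.

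Immediate early genes, which follow neuronal activity and handling, had few calls between the regions and low levels in replicate 1 of both. Of 28 tested 0 were higher and 4 lower, or 14.3% where 30.5% of all tested genes were called. At an unadjusted p of 0.05 in edgeR 0 were higher and 7 lower, and DESeq2 called 0 and 4. Without striatum replicate 1 the lower count was 2. Fos was at 6.34, 60.0 and 95.0 CPM in the striatum and 25.1, 63.2 and 152 CPM in the prefrontal cortex, Npas4 at 2.80, 43.5 and 43.2 CPM against 10.5, 22.8 and 58.7 CPM, and Egr2 at 9.35, 63.5 and 61.3 CPM against 10.1, 20.6 and 50.2 CPM. In each of the 3, replicate 1 was the lowest library of its region, and the regions overlapped. With the replicate number as a block over the 12 forebrain libraries 8 were lower. Ier2 passed in the unblocked test (log2 -2.10 ± 0.39, adjusted p = 5.76e-04), as did Bdnf. Of 16 genes often used as references, 2 were higher and 5 lower, or 43.8%. The lower count was 3 without prefrontal replicate 1 or striatum replicate 2 or 3, and the higher count was 0 without prefrontal replicate 2. Gapdh was at 1224, 1278 and 1392 CPM against 1435, 1391 and 1344 CPM and Hprt at 193, 201 and 209 CPM against 218, 204 and 195 CPM, neither of which passed, while Pgk1 was lower at 152, 152 and 156 CPM against 197, 207 and 187 CPM (log2 -0.36 ± 0.085, adjusted p = 0.00389).

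The same regions were measured a second time in the knock-in mice, whose 6 libraries share no mouse group with the WT ones. Between knock-in striatum and knock-in prefrontal cortex 2201 genes were higher (13.1%) and 2634 lower (15.6%). Of the genes called in WT mice, 66.8% of those higher and 75% of those lower were called in the same direction in the knock-in mice, and of the knock-in calls 71.7% and 78.8% were called in WT, with 0 in the opposite direction either way. Of the 2164 genes at least 2-fold different in WT mice, 2139 had the same sign in the knock-in mice and 25 the other. The striatal identity list was higher for 35 of 36 members in the knock-in mice, the cortical transcription factors were lower for 23 of 35, and the oligodendrocyte genes were higher for 24 of 26 against 12 in WT. The olfactory bulb list was lower for 1 of 11 members against 6 in WT.

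**Figure D5:**
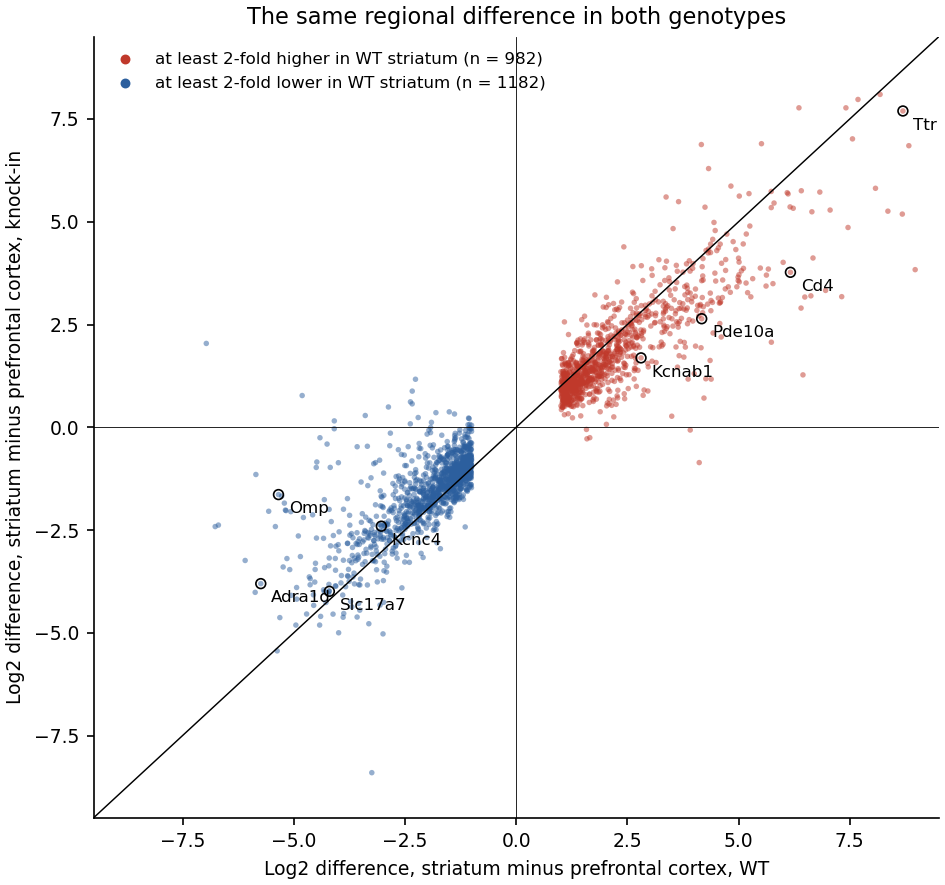
Fitted log2 difference of striatum minus prefrontal cortex in WT mice (horizontal axis) and knock-in mice (vertical axis) for the 982 genes at least 2-fold higher (red) and the 1182 genes at least 2-fold lower (blue) in the WT striatum, with the line of equality drawn and 8 genes named. Genes were selected on the horizontal axis only, and 2139 of the 2164 lie in the quadrants of equal sign.

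Whether the regional difference itself depended on genotype was tested gene by gene as an interaction. The edgeR test called 0 of 16841 genes (0%), 743 (4.41%) had an unadjusted p under 0.05, and DESeq2 called 12. Kcnab1 had the smallest p, with 397, 490.0 and 418 CPM in the knock-in striatum and 115, 156 and 134 CPM in the knock-in prefrontal cortex (log2 1.69 ± 0.13), against log2 2.81 ± 0.14 in WT. The WT difference was larger by log2 1.12 ± 0.19 (adjusted p = 0.254 in edgeR and 3.88e-04 in DESeq2). Rasa4, a regulator of Ras, was at 3.81, 3.27 and 2.78 CPM in WT striatum against 11.6, 12.0 and 15.6 CPM in WT prefrontal cortex and at 5.34, 4.03 and 4.36 against 7.21, 8.39 and 6.58 CPM in the knock-in mice (difference of log2 -1.29 ± 0.23, adjusted p = 0.275 in edgeR and 0.00857 in DESeq2). The WT level of Rasa4 was lower in the striatum without overlap. For the membrane protein gene Tmem128 the difference was log2 -1.08 ± 0.20, for Strn 0.62 ± 0.12 and for Gpr155, a lysosomal cholesterol sensor, 0.76 ± 0.15, with adjusted p-values of 0.275, 0.344 and 0.365 in edgeR and 0.00165, 0.00902 and 0.0161 in DESeq2. These 5 genes were thus called by DESeq2 and not by edgeR. Tmem128 was the 1 gene called without knock-in prefrontal replicate 1 (difference of log2 -0.86, adjusted p = 0.0429). At 3 libraries a group, the test of striatum against prefrontal cortex was also run on counts simulated for 16644 genes. Of these, 67 differed 1.5-fold, 67 differed 2-fold and 66 differed 4-fold, and the rest were unchanged. The changed genes were drawn only from those at a mean of at least 5 CPM, so genes at lower levels were not covered. The test recovered 40.3% of the 1.5-fold and 86.6% of the 2-fold differences. In the real data 5134 genes were called, which loosens the unadjusted p needed to pass, so these shares do not carry over. The interaction was not simulated.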

How the data were processed

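RNA-seq libraries were made by the authors from total RNA of dissected mouse brain regions, extracted with Trizol and amplified from 10 ng with SMART-Seq v4 and Nextera XT. The submitters' processing notes name bcl2fastq 2.17.1.14, STAR 2.5.2b, HTSeq, DESeq2 1.10.1 and the build GRCm38.p3. The annotation and strand setting of the counting are not given in the sources used here, so overlapping genes may share reads. The authors deposited raw counts per gene for 19 libraries, which were used here, and a table of the same counts divided by 1 constant per library (unit signal). That deposited signal table shifted the log2 ratio of mean levels by 1e-04 to 0.0137 over 254 genes. Gene names and coordinates were taken from GENCODE M21 (GRCm38), which matched 40254 of 41128 rows, and promoters from RefSeq (GRCm38.p6).

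Counts were analysed with edgeR 4.0.16 (R 4.3.3, limma 3.58.1), with TMM scaling, filterByExpr and a quasi-likelihood fit of 6 groups to all 19 libraries (13 residual degrees of freedom). Genes with a Benjamini-Hochberg adjusted p under 0.05 were called. CPM use TMM-scaled library sizes. A prior count of 2 was used only for the log2 CPM behind the principal components and the correlations between libraries. Fitted log2 differences used the edgeR default instead, so they can be extreme for genes with few counts. Library sizes of 13453498 to 15493036 counts limit the precision of genes at a few CPM. Alternatives comprised DESeq2 1.42.0, its size factors, both count filters, fewer libraries, a replicate block, each library left out and a test against 1.5-fold. The block over the 12 forebrain libraries and the fit without both libraries numbered 3 were chosen after seeing the data. Same-numbered libraries deviated together (r = 0.31, 0.33 and 0.23 in WT and 0.32, 0.36 and 0.37 in knock-in mice, against -0.25 to -0.08 between different numbers). Deviations were taken from the group mean of 3 libraries, so the negative values follow in part from the centring and are not separate evidence of pairing. The replicate number served as a block in alternatives, while the test reported here had no block. Named genes were the 10 with the largest non-overlapping fold in each direction at a mean of at least 10 CPM, the 5 with the largest difference of mean CPM, list members, genes of the study, and the 5 with the smallest p for a difference between genotypes. The region, the gene lists and the motifs were chosen with earlier results of these data known. The test was also run on counts simulated from the mean CPM of each group and the estimated spread of each gene. The 2 compared WT groups were given a common mean, except for the changed genes. Those were drawn only from genes at a mean of at least 5 CPM over the 2 regions. There 11 unchanged genes were called among the 16644 genes, 6.79% of the calls. Some members of the gene lists are counted but not reported here by name.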

Additional observations from a re-analysis of the deposited data

How the results depend on the processing

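The counts of higher and lower genes stayed within 1.5 times of 2365 and 2769 in every alternative except the test against a 1.5-fold difference, which called 725 and 924. With only the 6 compared libraries in the fit, 1816 genes were higher and 2179 lower. Leaving out 1 WT library gave 1831 to 2342 higher and 1972 to 2570 lower genes, and 791 to 1085 and 926 to 1200 at least 2-fold. Leaving out 1 knock-in library gave 1544 to 1867 higher and 2002 to 2418 lower genes in knock-in mice. For the difference between genotypes, leaving out 1 library gave 0 to 1 calls and DESeq2 gave 12. With the replicate number as a block, 1825 genes were higher and 2142 lower over the 6 libraries, 2329 and 2691 over all 19, and 2370 and 2649 over the 12 forebrain libraries, and this pairing changed no call of a named gene other than those of Ddc and Gad1. Of 254 named genes, 183 kept their direction and side of the threshold in every alternative. The sign turned for 17 genes, of which 14 passed neither with all libraries nor in the alternative that turned the sign. The other 3 passed where the sign turned as 1 library was left out, with log2 differences from -2.42 (without striatum replicate 3) to 0.53 for Cartpt, from -2.50 to 1.78 (without prefrontal replicate 3) for Th and from -0.44 to 0.82 (without prefrontal replicate 3) for Tshz1. Without both libraries numbered 3 they were -2.37 for Cartpt and 0.77 for Tshz1. With the test against 1.5-fold 44 named genes were no longer called, which follows from its stricter null. With both libraries numbered 3 left out 10 were no longer called and 3 were gained, and the cause was not tested.

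With 3 libraries a group and 13 residual degrees of freedom, differences under 1.5-fold and genes at a few counts may often have been below what could be detected. Dissection, cell number and RNA per cell cannot be told apart in these bulk samples, and sex was not a term of the fit.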

Other observations

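Growth factors and their receptors differed between the regions in both directions, with 3 higher and 4 lower of 14 tested (30.5% of all tested genes were called). Gdnf, a factor that keeps dopamine neurons alive, was at 2.07, 5.80 and 3.48 CPM in the striatum and 0, 0.0678 and 0.270 CPM in the prefrontal cortex (adjusted p = 2.86e-04). The prefrontal values stand for a few counts at most, and the regions did not overlap. Gfra2, the receptor for the related factor neurturin, was at 3.47, 3.79 and 13.5 CPM against 79.3, 63.1 and 58.8 CPM, 9.74-fold lower (adjusted p = 4.17e-05). Gfra2 was again highest in striatum replicate 3 within its group. Ntrk3, the receptor of neurotrophin-3, was at 109, 114 and 103 CPM against 96.7, 78.8 and 72.7 CPM (log2 0.39 ± 0.098, adjusted p = 0.00602).

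The genes that make and recycle glutamate had 1 higher and 4 lower of 12, or 41.7% where 30.5% of all tested genes were called. Gls2, a glutaminase, was lower at log2 -0.99 ± 0.21. The factors that both regions share had 3 higher and 2 lower of 8. Of the lists that separate the pathways of the striatum, the direct pathway list had 8 higher and 1 lower of 11, and the indirect pathway list 7 higher of 9. Neuroblast genes had 3 higher and 3 lower of 12, with 1 lower without prefrontal replicate 3 or striatum replicate 2. The thalamic, pallidal and hypothalamic list had 1 higher and 2 lower of 8, or 37.5%. Tcf7l2, a marker of the thalamus, was at 12.8, 11.8 and 11.3 CPM against 9.79, 10.4 and 11.6 CPM and did not pass.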
